A study of Mus musculus with 6 samples.

Results

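The 9 genes described here encode components and receptors of the complement system, and were taken by symbol (C3, C4b, C2, Cfb, C1ra, C1s1, Serping1, C3ar1 and C5ar1) from a table of 19288 genes. All 9 were in the table, and 8 of them passed the filter on low counts, as did 13632 genes in all; Cfb did not. The 6 libraries were made from RNA of tumours grown under the skin from implanted LLC1 cells, a mouse line known as Lewis lung carcinoma. Every host was an offspring of a C57BL/6 female and an FVB male carrying a beta-hCG transgene, so no tumour of a host without the transgene was analysed here. Progesterone tumours (2 libraries) grew in ovariectomized transgenic mice supplemented with progesterone, vehicle tumours (2 libraries) in ovariectomized transgenic mice given vehicle, and transgenic tumours (2 libraries) in transgenic mice for which no ovariectomy or supplementation is named. Supplementation lasted 28 days and tumours were removed 30 days after implantation. The sources used here name neither the promoter of the transgene nor the age of the mice, and the labels do not say that the 2 libraries of a group came from separate animals, so p-values measure only the spread between libraries. Host and tumour cells are both of mouse origin, and a lower level in such bulk RNA can come from fewer cells of a type or from less RNA per cell, which cannot be told apart.

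Complement is a cascade of plasma proteins that tags surfaces for uptake and calls in leukocytes. In the classical route C1q binds a target, the protease C1r activates C1s, which cleaves C4 and C2, and the resulting enzyme cleaves C3, the central protein of all routes; in the alternative route factor B does the work of C2. The fragments C3a and C5a signal through the receptors C3aR (C3ar1) and C5aR1 (C5ar1) of myeloid cells, and C1 inhibitor (Serping1) blocks C1r and C1s. The liver makes most plasma complement, whereas macrophages and fibroblasts of tissues and tumours make several components locally, and C3 is known as an oestrogen-induced transcript of the rodent uterus.

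The DNA just before the start sites of C3, the centre of the cascade, and of both receptor genes is shown, since the values of both receptors did not overlap between progesterone and vehicle tumours. RefSeq promoter windows (GRCm38.p6) matched 5 of the 9 genes by symbol, namely C3, C1ra, C1s1, C3ar1 and C5ar1. The 150 bases that precede the RefSeq start site run 5′ to 3′ on the gene's own strand, with matches to the patterns searched in capitals. These stretches are chr17:57228137-57228286 (minus strand) for C3, chr6:122856158-122856307 (minus strand) for C3ar1 and chr7:16259339-16259488 (minus strand) for C5ar1. In GENCODE M21 the C5ar1 gene reaches to 16259540, so its printed stretch lies inside that gene and precedes the RefSeq start only. The GENCODE C3ar1 gene reaches to 122856161, a few bases into its stretch.
C3: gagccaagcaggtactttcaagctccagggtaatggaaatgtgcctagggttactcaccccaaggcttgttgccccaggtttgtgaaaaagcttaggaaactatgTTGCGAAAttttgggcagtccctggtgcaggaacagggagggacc
C3ar1: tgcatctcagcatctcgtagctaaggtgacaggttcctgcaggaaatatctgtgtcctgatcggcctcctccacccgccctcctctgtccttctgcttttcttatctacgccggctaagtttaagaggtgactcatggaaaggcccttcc
C5ar1: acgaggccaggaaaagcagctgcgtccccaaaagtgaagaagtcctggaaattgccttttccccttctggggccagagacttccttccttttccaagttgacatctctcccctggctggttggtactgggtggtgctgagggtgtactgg

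The capitals in C3 mark TTGCGAAA, from base -45 to base -38 counted from the start site, a match to the C/EBP pattern TTGCNNAA. Searched on both strands over 250 bases before the start, this pattern was present in 2 of the 5 genes, C3 and C1s1 (at -242 to -235). It was present in 9.56% of all 32851 windows. The first RefSeq window of each gene was counted, and another window of C1s1, with a nearby start site, held no match. The STAT pattern TTCNNNGAA, the interferon-stimulated response element, the oestrogen response element, the shared glucocorticoid and progesterone response element and the kappaB consensus had 0 matches in the 5 genes, against 7.02%, 2.98%, 0.0639%, 0.387% and 7.25% of all windows. TATAAA was found in C3ar1 at -235 to -230 and in 12.4% of all windows. No searched pattern stands in the printed bases of C3ar1 or C5ar1.

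Library totals ran from 19526775 to 30083925 counts, so the limit that a count of 0 allows, 3 counts, lay between 0.103 and 0.159 CPM (counts scaled to a common library size, with TMM factors), counting error only. Cytokeratin genes of simple epithelia, Krt8 and Krt18, had 135 to 393 and 125 to 370 CPM, while the lung and epithelial markers Sftpc and Epcam reached at most 0.0370 and 0.222 CPM. Hepatocyte markers were near 0, with Alb, Apoa1 and Ttr summing to 0 to 0.222 CPM in any library, so transcripts of liver cells were close to absent. Progesterone library 2 held the highest value of 6 of the 8 complement genes past the filter, whereas 17.3% of all tested genes had their highest value there.

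C3ar1 and C5ar1, the receptors for C3a and C5a, had higher values in both progesterone libraries than in both vehicle libraries, although neither difference passed the test over all genes. C3ar1 (ENSMUSG00000040552, chromosome 6, 122847138 to 122856161, minus strand) had 82.1 and 66.7 CPM in progesterone, 43.9 and 47.0 CPM in vehicle, and 33.1 and 98.2 CPM in transgenic tumours. Both progesterone libraries lay above both vehicle libraries, and the transgenic libraries spanned the lowest and the highest value of all 6. C5ar1 (ENSMUSG00000049130, chromosome 7, 16246743 to 16259540, minus strand) had 47.4 and 47.8 CPM in progesterone, 31.3 and 27.1 CPM in vehicle, and 27.6 and 39.7 CPM in transgenic tumours. Its progesterone libraries lay above all 4 others.

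Progesterone over vehicle, C5ar1 had a log2 fold change of 0.70 ± 0.23 (SE), a 1.63-fold difference (unadjusted p = 0.0165, adjusted p = 0.932 by edgeR, 2 libraries a group). C3ar1 had 0.71 ± 0.44, a 1.64-fold difference (adjusted p = 0.999 by edgeR). Neither passed the test over all genes, and over 13 other settings the adjusted p ran from 0.294 to 1 for C5ar1 and from 0.509 to 1 for C3ar1. With each library left out in turn, C5ar1 stayed between 0.60 and 0.80 and C3ar1 between 0.55 and 0.86. Over transgenic tumours, C5ar1 had 0.50 ± 0.22 in progesterone (adjusted p = 0.914 by edgeR) and -0.20 ± 0.23 in vehicle tumours (adjusted p = 0.967 by edgeR, 0.08 without transgenic library 2). C3ar1 had 0.18 ± 0.44 in progesterone and -0.53 ± 0.44 in vehicle tumours over transgenic tumours, and both signs turned on 1 library: 0.18 became -0.40 without transgenic library 1, and -0.53 became 0.46 without transgenic library 2.

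Markers of several cell types were also higher in progesterone than in vehicle tumours without passing the test. The 10 macrophage markers, all detected, summed to 2469 and 2240 CPM in progesterone, 1320 and 1560 CPM in vehicle, and 1097 and 2214 CPM in transgenic tumours. Lysozyme (Lyz2) had 1706 and 1185 CPM in progesterone, 806 and 1094 CPM in vehicle, and 730 and 1523 CPM in transgenic tumours, and made up most of the sum in each group. Of the 10 markers, 9 had a positive log2 fold change for progesterone over vehicle tumours (median 0.73), 8 were higher and 1 lower without overlap (18.5% and 17.8% of all genes), and 0 were called by edgeR. The exceptions were Mertk, with 47.5 and 59.5 CPM in progesterone against 74.1 and 60.1 CPM in vehicle tumours, and Cd14, whose groups overlapped. As a share of the macrophage sum, C3ar1 was 3.33% and 2.98% in progesterone, 3.33% and 3.01% in vehicle, and 3.01% and 4.435% in transgenic tumours. C5ar1 was 1.92% and 2.13% of it in progesterone, 2.37% and 1.74% in vehicle, and 2.52% and 1.79% in transgenic tumours. These shares, taken of a sum that is mostly Lyz2, overlapped between progesterone and vehicle tumours for both receptors. Neutrophil markers, whose cells also carry C5aR1, summed to 164 and 114 CPM in progesterone, 174 and 176 CPM in vehicle, and 238 and 51.8 CPM in transgenic tumours. Progesterone over vehicle, 2 of the 7 past the filter had positive and 5 negative log2 fold changes (median -0.13). Without overlap 0 were higher and 3 lower (18.5% and 17.8% of all genes), and 0 were called by edgeR. Mast cell markers (6 of 6 detected) summed to 80.7 and 181 CPM in progesterone, 25.7 and 28.7 CPM in vehicle, and 16.6 and 30.9 CPM in transgenic tumours. Of these, 5 of 6 were higher in progesterone tumours without overlap against vehicle and against transgenic tumours (18.5% and 14.5% of all genes). Median log2 fold changes were 3.16 and 3.61, and 0 were called by edgeR. Kit, the exception, had 8.62 and 15.1 CPM in progesterone, 15.0 and 15.7 in vehicle, and 12.6 and 17.4 in transgenic tumours. What part these cells had in the receptor values was not tested.

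**Figure D1:**
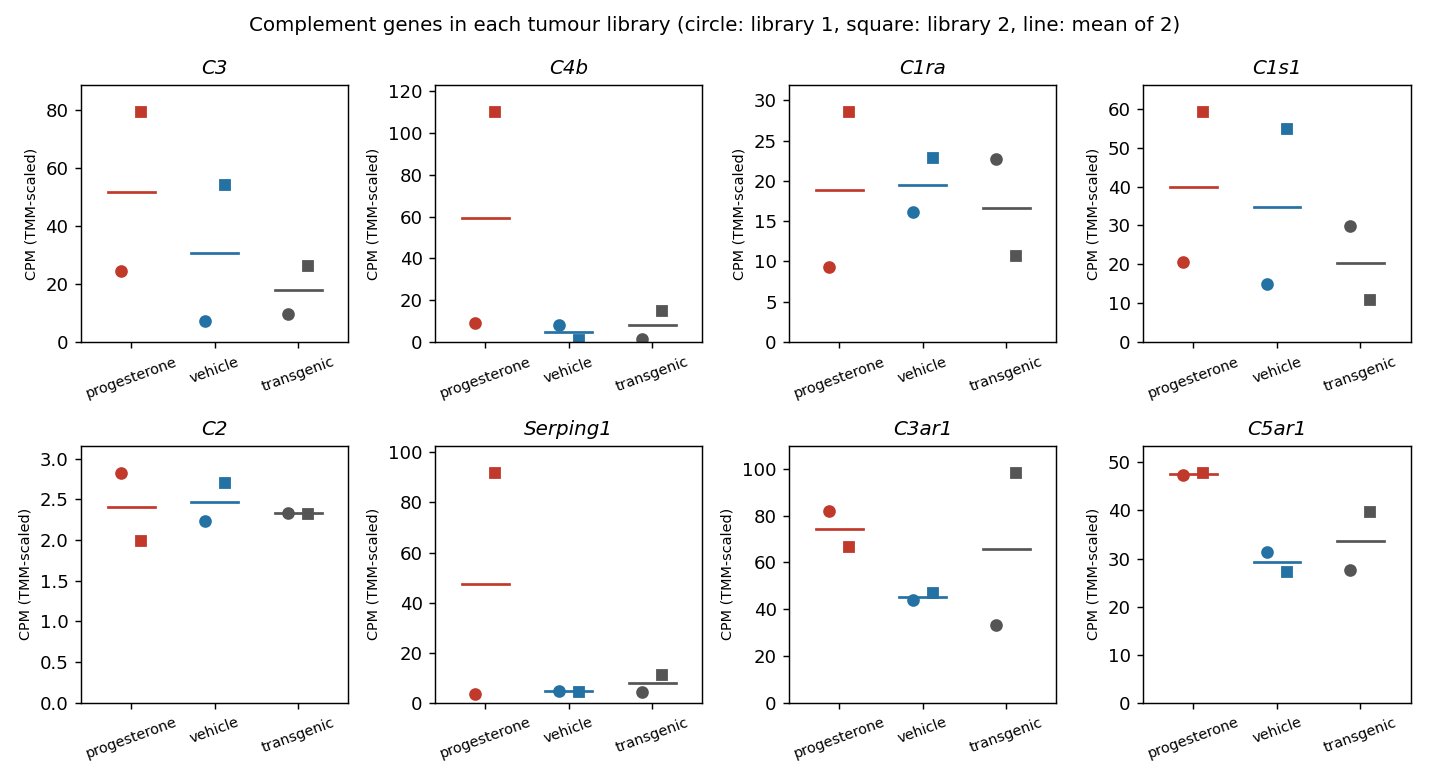
CPM (vertical axis, from 0 in each panel) of the 8 complement genes past the filter in progesterone, vehicle and transgenic tumours; circles are library 1, squares library 2 and lines the mean of 2. C5ar1 has both progesterone libraries above the other 4, while Serping1 and C4b have 1 progesterone library far above all others.

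C3 (ENSMUSG00000024164, chromosome 17, 57203970 to 57228136, minus strand), whose product is cleaved in every route of activation, differed widely within each group. It had 24.6 and 79.1 CPM in progesterone, 7.14 and 54.3 CPM in vehicle, and 9.48 and 26.3 CPM in transgenic tumours. Library 2 was the higher one in each group, and the groups overlapped. Group means were 51.8 ± 38.6 CPM in progesterone, 30.7 ± 33.3 CPM in vehicle and 17.9 ± 11.9 CPM in transgenic tumours (SD, n = 2). Progesterone over vehicle, the log2 fold change was 0.76 ± 0.94 (adjusted p = 0.999 by edgeR), and it became -0.32 without progesterone library 2 and -0.08 without vehicle library 1. Progesterone over transgenic, it was 1.54 ± 0.96 (adjusted p = 0.938 by edgeR), 0.46 without progesterone library 2. Vehicle over transgenic, it was 0.77 ± 0.95 (adjusted p = 0.969 by edgeR), and -1.33 without vehicle library 2.

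C4b (ENSMUSG00000073418, chromosome 17, 34728380 to 34743882, minus strand), the substrate of C1s, had the widest range, 115-fold from the lowest to the highest library. It had 9.23 and 109.8 CPM in progesterone, 8.30 and 0.954 CPM in vehicle, and 1.22 and 14.6 CPM in transgenic tumours. The progesterone libraries lay just above and far above the vehicle libraries, and they overlapped the transgenic ones. Progesterone over vehicle, the log2 fold change was 3.65 ± 1.54 (unadjusted p = 0.0489, adjusted p = 0.939 by edgeR, 0.103 to 1 over 13 other settings), and 0.98 without progesterone library 2. Over transgenic tumours it was 2.91 ± 1.49 in progesterone (0.22 without progesterone library 2) and -0.74 ± 1.43 in vehicle tumours (0.07 without vehicle library 2 and 1.96 without transgenic library 2), with adjusted p of 0.914 and 0.982 by edgeR.

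The C4b values are uncertain, since 22.7% of the 75-base stretches of its transcripts also occur in those of its neighbour and near copy C4a, and the counting of such reads is not given in the sources used here. C4a is not analysed here.

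Serping1 (ENSMUSG00000023224, chromosome 2, 84765387 to 84775444, minus strand), the C1 inhibitor, had 3.32 and 91.7 CPM in progesterone, 4.70 and 4.40 CPM in vehicle, and 4.445 and 11.0 CPM in transgenic tumours. One library stood apart: progesterone library 2 had 27.6 times the CPM of progesterone library 1, which held the lowest value of all 6. Progesterone over vehicle, the log2 fold change was 3.38 ± 1.27 (unadjusted p = 0.0316, adjusted p = 0.939 by edgeR, 0.0589 to 1 over 13 other settings), and it became -0.45 without progesterone library 2. Over transgenic tumours it was 2.63 ± 1.22 in progesterone tumours (adjusted p = 0.914 by edgeR) and -1.21 without that library. Vehicle tumours had -0.75 ± 1.19 over transgenic tumours (adjusted p = 0.973 by edgeR), and 0.04 without transgenic library 2.

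Genes of other cells stood high in the same progesterone library. Chosen after their values were seen, the collagen gene Col1a2 had 32.2 and 1082 CPM in the progesterone libraries and 9.96 to 107 CPM in the other 4, and Cd163, a macrophage receptor for haemoglobin complexes, had 4.29 and 126 CPM against 0.848 to 8.18 CPM. Of the 10 fibroblast markers, all detected, 4 had their highest value in that library, namely Col1a1, Col1a2, Pi16 and Fbln1, and 4 others in vehicle library 2. Pi16 had 3.44 and 94.2 CPM in progesterone, 3.40 and 3.71 CPM in vehicle, and 3.11 and 1.22 CPM in transgenic tumours. The sum of the list, most of it Col3a1, was 5339 and 10670 CPM in progesterone, 6951 and 11710 CPM in vehicle, and 7806 and 1944 CPM in transgenic tumours. Pericyte and smooth muscle markers (6 of 6 detected) summed to 81.0 and 220.6 CPM in progesterone, 90.6 and 144 CPM in vehicle, and 95.5 and 171 CPM in transgenic tumours. Their part in the Serping1 and C4b values was not tested.

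C1ra and C1s1, the proteases of C1, are neighbours on chromosome 6 and are transcribed towards each other: C1ra (ENSMUSG00000055172) at 124512405 to 124523443 on the plus strand and C1s1 (ENSMUSG00000038521) at 124530345 to 124542359 on the minus strand. C1s1 had 20.5 and 59.1 CPM in progesterone, 14.8 and 54.8 CPM in vehicle, and 29.9 and 10.8 CPM in transgenic tumours. C1ra had 9.35 and 28.5 CPM in progesterone, 16.1 and 22.8 CPM in vehicle, and 22.7 and 10.7 CPM in transgenic tumours. For each gene library 2 was the higher in progesterone and vehicle tumours and the lower in transgenic tumours, and all groups overlapped. Per length of exon, C1s1 stood at 2.09 and 1.98 times C1ra in progesterone, 0.878 and 2.29 times in vehicle, and 1.26 and 0.964 times in transgenic tumours.

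Progesterone over vehicle, C1s1 had a log2 fold change of 0.20 ± 0.75 and C1ra of -0.04 ± 0.56 (adjusted p = 0.999 for both by edgeR). These became -0.76 and -1.06 without progesterone library 2. C1s1 had 0.96 ± 0.76 in progesterone (0.01 without progesterone library 2) and 0.77 ± 0.76 in vehicle tumours (-0.46 without vehicle library 2) over transgenic tumours. C1ra had 0.18 ± 0.56 (-0.83 without progesterone library 2 and -0.27 without transgenic library 2) and 0.22 ± 0.56 (-0.05 without vehicle library 2 and -0.22 without transgenic library 2) in the same pair of comparisons. Of the 75-base stretches, 40.1% of C1ra also occur in C1rb and 13.0% of C1s1 in C1s2, so reads can be shared or lost. The copies themselves had few counts, 1 to 19 for C1rb and 2 to 21 for C1s2 in any library, against 242 to 689 for C1ra and 257 to 1429 for C1s1. The antisense gene Gm16567 covers 18.4% of the exon bases of C1s1, and whether counting used the strand is not given in the sources used here.

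C2 (ENSMUSG00000024371, chromosome 17, 34862604 to 34898265, minus strand), the protease of the classical C3-cleaving enzyme, was the steadiest member. It had 2.82 and 1.99 CPM in progesterone, 2.23 and 2.70 CPM in vehicle, and 2.33 and 2.32 CPM in transgenic tumours, on 48 to 73 counts a library. The groups overlapped, the highest library stood at 1.42 times the lowest, and the log2 fold changes were -0.03 ± 0.45 for progesterone over vehicle, 0.05 ± 0.45 for progesterone over transgenic and 0.08 ± 0.45 for vehicle over transgenic tumours, whose sign turned on single libraries. With 2 SE to either side, the first of these spans -0.94 to 0.87.

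Cfb (ENSMUSG00000090231, chromosome 17, 34856374 to 34862518, minus strand), the factor B gene, had 0 and 1 counts in progesterone, 0 and 1 counts in vehicle, and 0 and 0 counts in transgenic tumours. Every library lay under the limit of 3 counts, so no fold is given. The count may not reflect the transcript, because in GENCODE M21 the gene Gm20547 spans Cfb and C2 on the same strand (34856412 to 34882042). Gm20547 shares 79.5% of the exon bases of Cfb and 42.8% of those of C2. It has no exon over the first exon of Cfb, which runs from 0 to 466 bases after the Cfb start. How reads falling on more than 1 gene were counted is not stated in the sources used here, Gm20547 is not analysed here, and its part in the low Cfb count was not tested. Levels of C2 and Cfb are not compared with other genes.

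**Figure D2:**
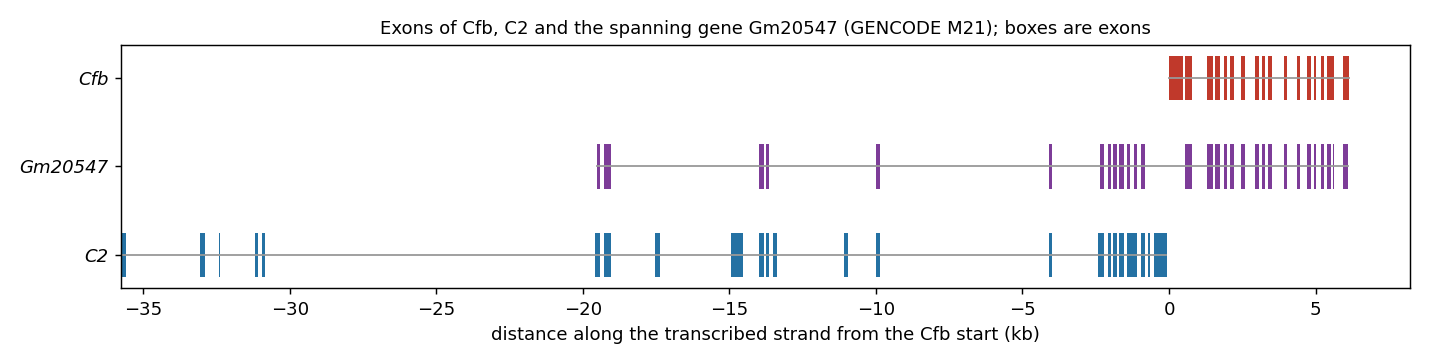
Exons (boxes) of Cfb, of the spanning gene Gm20547 and of C2 in GENCODE M21, by distance in kb along the transcribed strand from the Cfb start. Most Cfb exons and most of the downstream C2 exons are also exons of Gm20547.

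Per length of exon (CPM per kb of union exon), the order of the members differed between libraries. A receptor gene stood first in 4 of the 6, namely C3ar1 in progesterone library 1 (19.1 CPM per kb) and transgenic library 2 (22.8), and C5ar1 in vehicle library 1 (12.2) and transgenic library 1 (10.7). Serping1 led in progesterone library 2 (39.4 CPM per kb) and C1s1 in vehicle library 2 (17.5). Over all 6 libraries C3ar1 averaged 14.4 ± 5.81, C5ar1 14.3 ± 3.69, C1s1 10.1 ± 6.61, Serping1 8.57 ± 15.2, C3 6.51 ± 5.44, C1ra 6.16 ± 2.54 and C4b 4.22 ± 7.44 CPM per kb (SD, n = 6). The means of neighbours in this order differed by less than the larger of their SDs.

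The 2 libraries of a group were far apart for several soluble components, and in transgenic tumours also for the receptor gene C3ar1. The median SE of a log2 fold change for progesterone over vehicle tumours was 0.66 over the members and 0.26 over all genes. Between the progesterone libraries the median absolute difference was 1.56 on the log2 scale over the 8 members and 0.29 over all 13632 genes. Between the vehicle libraries these medians were 0.39 for the members and 0.21 for all genes, and between the transgenic libraries 1.37 and 0.33. Above the 90th percentile of all genes lay 5 of 8 members in progesterone, 3 of 8 in vehicle and 5 of 8 in transgenic tumours, where the percentile was 1.14, 0.88 and 1.23. C3, C4b and C1s1 lay above it in every group, and C2 and C5ar1 in none. C3ar1 lay above it in transgenic tumours alone, with a difference of 1.57. C5ar1 differed by 0.01, 0.20 and 0.52 in progesterone, vehicle and transgenic tumours.

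**Figure D3:**
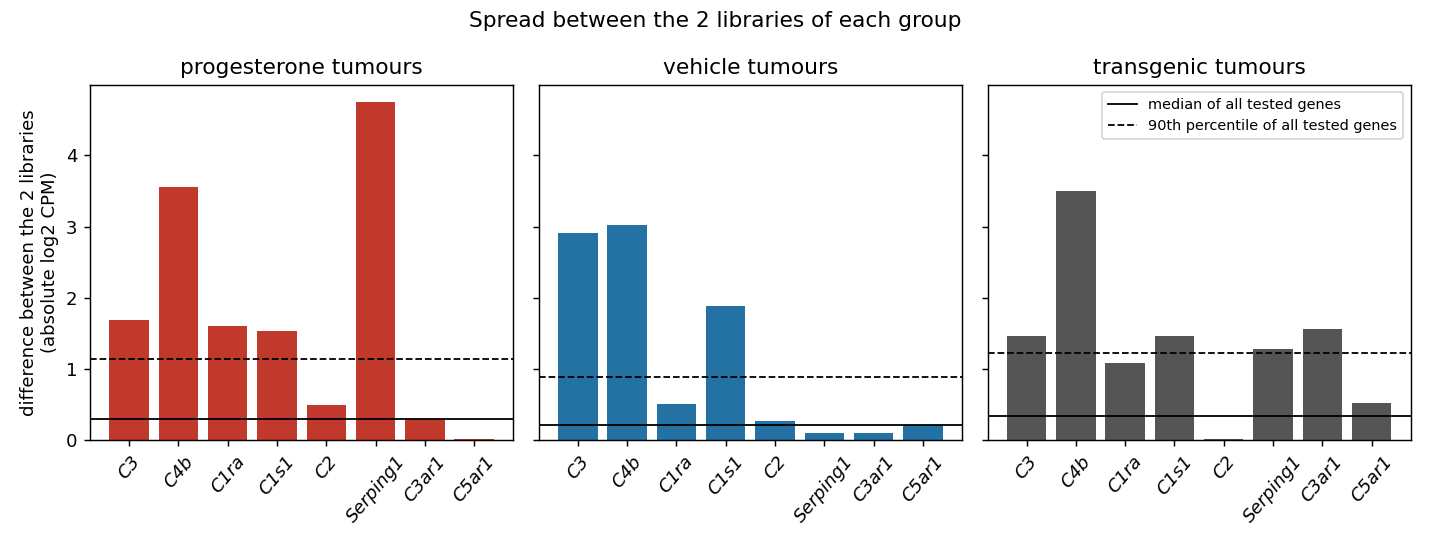
Absolute difference in log2 CPM between the 2 libraries of the progesterone, vehicle and transgenic groups for each gene (bars), with the median (solid line) and the 90th percentile (dashed line) of all 13632 tested genes. C3, C4b and C1s1 exceed the dashed line in all 3 groups, and C5ar1 and C2 stay under it.

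Counted over the members, progesterone over vehicle tumours gave 6 positive and 2 negative log2 fold changes with a median of 0.71, against 0.01 over all genes, of which 51.1% were positive. By edgeR 0 of 8 passed an adjusted p of 0.05 (0% of all 13632 genes did); DESeq2 and limma-voom also called 0 of 8, and their calls over all genes were 75 (0.572%) and 0 (0%). At an unadjusted p under 0.05 edgeR had 3 members, C4b, Serping1 and C5ar1, and 721 genes (5.29%). The groups did not overlap, with progesterone higher, for C4b, C3ar1 and C5ar1, 3 of 8, against 18.5% of all genes. The median of the members was -0.06 without progesterone library 2 and 0.29 without vehicle library 1.

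Progesterone over transgenic tumours gave 8 of 8 positive values with a median of 0.73, against 0.01 over all genes (51% positive), and 0.25 without progesterone library 2. By edgeR 0 of 8 passed (0% of all genes), with 0 of 8 members and 718 genes (5.27%) at an unadjusted p under 0.05; DESeq2 called 0 of 8 and 47 genes (0.366%), limma-voom 0 of both. The groups did not overlap for C5ar1 alone, 1 of 8, against 14.5% of all genes. Vehicle over transgenic tumours gave 4 positive and 4 negative values with a median of -0.06, against -0.01 over all genes. There edgeR called 0 of 8 (0% of all genes), with 0 of 8 members and 759 genes (5.57%) at an unadjusted p under 0.05; DESeq2 called 0 of 8 and 66 genes (0.56%), limma-voom 0 of both. The groups overlapped for all 8, whereas 17.9% of all genes were higher and 17.7% lower without overlap. The 3 comparisons share libraries and are not independent.

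**Figure D4:**
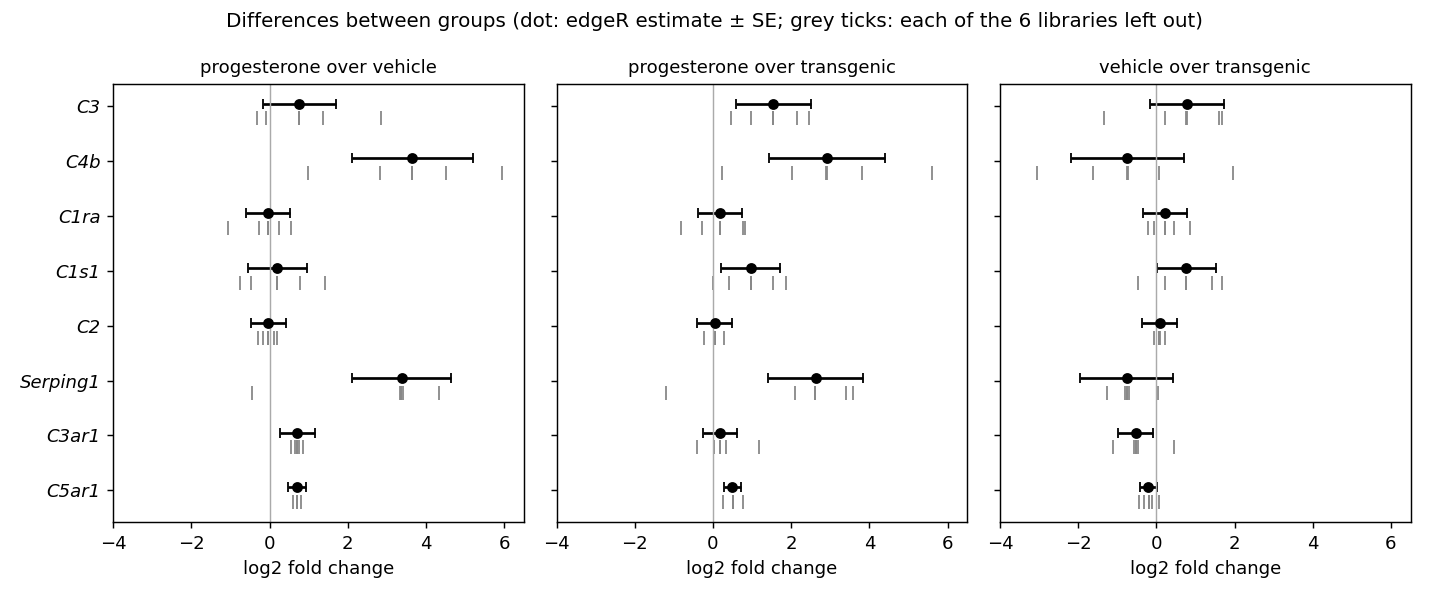
Log2 fold changes of the 8 genes (dots, edgeR estimate ± SE) for progesterone over vehicle, progesterone over transgenic and vehicle over transgenic tumours, with grey ticks for the value after leaving out each of the 6 libraries. For progesterone over vehicle the ticks of C3ar1 and C5ar1 stay above 0, while those of Serping1 reach -0.45.

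Of the other complement genes, 55 were listed, 50 were in the table and 25 passed the filter. By edgeR 0 of 25 were called higher and 0 lower in each of the 3 comparisons. Their median log2 fold changes were 0.41 for progesterone over vehicle (18 positive, 7 negative), 0.33 for progesterone over transgenic (19 positive, 6 negative) and -0.01 for vehicle over transgenic tumours (12 positive, 13 negative).

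Among the recognition genes, the chains of C1q showed the order of the receptors. C1qa had 190.0 and 178 CPM in progesterone, 118 and 133 CPM in vehicle, and 83.0 and 198 CPM in transgenic tumours, and C1qb and C1qc had the same order of groups. The 3 chains summed to 526 and 470 CPM in progesterone, 315 and 358 CPM in vehicle, and 224 and 555 CPM in transgenic tumours. C1qa, C1qb and C1qc had log2 fold changes of 0.55, 0.57 and 0.58 for progesterone over vehicle. All 3 had no overlap there and an adjusted p of 0.999 by edgeR. Over their list of other classical and lectin genes, 4 of 8 were higher and 2 of 8 lower without overlap, against 18.5% and 17.8% of all genes. Masp1, a protease gene of the lectin route, had 114 and 60.9 CPM in progesterone, 114 and 246 CPM in vehicle, and 153 and 39.5 CPM in transgenic tumours. The scavenger lectin gene Colec12 had 48.0 and 46.7 CPM in progesterone, 37.5 and 76.5 CPM in vehicle, and 80.3 and 36.6 CPM in transgenic tumours.

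Properdin (Cfp), which stabilizes the enzyme of the alternative route, had 95.6 and 87.6 CPM in progesterone, 39.1 and 49.1 CPM in vehicle, and 34.3 and 56.8 CPM in transgenic tumours. Both progesterone libraries lay above the other 4. Its log2 fold change was 1.05 ± 0.26 over vehicle tumours (unadjusted p = 0.0047, adjusted p = 0.932 by edgeR) and 1.01 ± 0.26 over transgenic tumours (adjusted p = 0.914 by edgeR).

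Regulators varied by library. Clusterin (Clu), an inhibitor of the terminal complex, had 88.6 and 121.5 CPM in progesterone, 343 and 80.1 CPM in vehicle, and 61.7 and 64.8 CPM in transgenic tumours. Decay-accelerating factor (Cd55) had 1.27 and 21.5 CPM in progesterone, 0.583 and 1.06 CPM in vehicle, and 0.630 and 0.464 CPM in transgenic tumours, so that progesterone library 2 again stood apart. Its log2 fold change was 3.80 ± 1.19 for progesterone over vehicle (unadjusted p = 0.0146, adjusted p = 0.932 by edgeR). The membrane regulator Cr1l had 48.9 to 61.9 CPM and Cd46 5.77 to 12.5 CPM over the 6 libraries, with overlapping groups in every comparison.

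Among the other receptors, the integrin chain Itgb2 ran from 76.3 to 152 CPM and Cd93 from 82.6 to 144 CPM. Vsig4 ran from 1.27 to 8.15 CPM and the second C5a receptor C5ar2 from 1.59 to 2.90 CPM. Itgax had 15.6 and 18.5 CPM in progesterone, 18.6 and 20.6 CPM in vehicle, and 18.8 and 28.9 CPM in transgenic tumours. Progesterone over vehicle, 0 of these 5 were higher and 1, Itgax, lower without overlap (18.5% and 17.8% of all genes). Over transgenic tumours, Vsig4 was higher and Itgax lower without overlap (14.5% of all genes each way). Of the terminal components, 0 of 7 passed the filter, and together they reached 0.232 and 4.96 CPM in progesterone, 0.549 and 0.477 CPM in vehicle, and 1 and 0.295 CPM in transgenic tumours. The highest sum was in progesterone library 2, where C6, chosen after its values were seen, had 3.77 CPM.

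**Figure D5:**
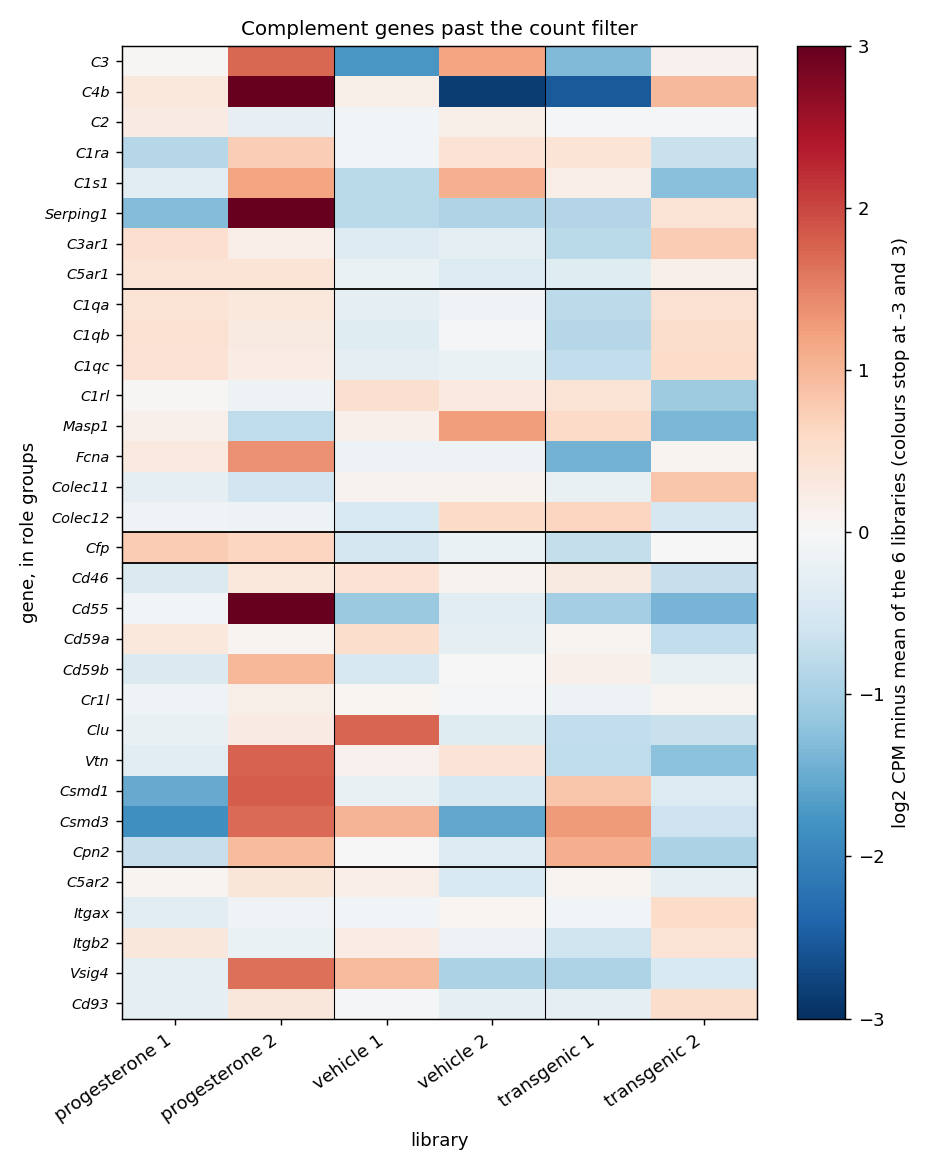
Log2 CPM of complement genes past the filter, each minus its mean over the 6 libraries (colour, which stops at -3 and 3), with libraries as columns and genes in role groups as rows. The rows of C3ar1, C5ar1, C1qa, C1qb and C1qc are above their mean in both progesterone libraries and in transgenic library 2, and those of Serping1, C4b and Cd55 are highest in progesterone library 2.

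As a measure of likeness, the root mean square difference between centred log2 CPM over the 6 libraries was 0.33 for C3ar1 and C5ar1, 0.55 for C1ra and C1s1, and 2.11 for C3 and C4b. It is also small for genes that vary little: it was 0.40 for C2 and C5ar1, although C2 was lowest in progesterone library 2, where C5ar1 was highest. Among 9467 other genes with at least 10 CPM on average, C3ar1 was nearest to Krt8 (0.06), C1qc (0.11), Nadsyn1 (0.13), Nrros (0.13) and Dok2 (0.14), where the median gene lay at 0.57. Krt8, a cytokeratin gene, had 362 and 280 CPM in progesterone, 180 and 209 CPM in vehicle, and 135 and 393 CPM in transgenic tumours. C1s1 was nearest to Olfml3 (0.20), Dclk1 (0.25), Pcdh18 (0.28), A230050P20Rik (0.35) and Sdk1 (0.35), with a median of 0.94 over all genes compared. C3 had no neighbour as close, with the collagen gene Col1a1 first at 0.62, then Npl (0.65), Loxl1 (0.69), Selenop (0.74) and Fbln1 (0.75), and a median of 1.26.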

How the data were processed

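Messenger RNA of tumours was sequenced in 6 libraries, and the values deposited are raw counts of reads for each Ensembl gene, without normalization. Per the submitters' processing notes, HISAT2, HTSeq and DESeq were used with the build GRCm38.p6; the sources used here give no versions, settings or use of strand. Per the labels' protocols, libraries came from a directional mRNA kit. In R 4.3.3, genes were filtered with edgeR 4.0.16 (filterByExpr), library sizes scaled by TMM, and 1 quasi-likelihood model with 1 mean per group was fitted to all 6 libraries (3 residual degrees of freedom). Calls needed a p under 0.05 after Benjamini-Hochberg adjustment over all 13632 genes. Standard errors were derived from the F statistic. Alternatives were DESeq2 1.42.0, limma-voom (limma 3.58.1), DESeq2 size factors, other filters, a fit of 2 groups, a replicate block and leaving out each library.

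Coordinates (1-based) and union exon lengths come from GENCODE M21 on GRCm38, which held 19284 of the 19288 gene IDs. Log2 CPM used a prior count of 2. All 9 genes were to be named, with up to 5 other complement genes per role group (highest mean CPM), the 5 genes most like C3, C1s1 and C3ar1, and up to 3 genes per marker list; 1 gene that this rule names is not reported here and is left out of the figure. The members and lists were chosen with earlier results of these data known. Lists are described by counts and medians, with no set test.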

Additional observations from a re-analysis of the deposited data

How the results depend on the processing

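With edgeR, 0 genes were called in each of the 3 comparisons, also with DESeq2 size factors, limma-voom, a filter of 1 CPM in 2 libraries, a fit of the 2 groups compared, and without each library in turn (lowest 0, highest 0). DESeq2 called 75, 47 and 66 genes for progesterone over vehicle, progesterone over transgenic and vehicle over transgenic tumours, and edgeR without a filter on low counts called 92, 28 and 12; the cause was not tested, and 0 of the 8 members were among the calls by any setting. A replicate block called 0 genes in each comparison and changed no member's call. The same-numbered libraries deviated with correlations of -0.125, -0.174 and 0.08 between pairs of groups. With 2 libraries a group, these values cannot show whether same-numbered libraries shared a batch. A crossed block, chosen after seeing the data, also called 0 genes. Under the replicate block, C4b had 0.72 for vehicle over transgenic tumours in place of -0.74, and the cause was not tested.

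Leaving out 1 library in turn reversed signs. For progesterone over vehicle the log2 fold change ran from -0.32 to 2.85 for C3, -0.31 to 0.20 for C2, -1.06 to 0.55 for C1ra, -0.76 to 1.42 for C1s1 and -0.45 to 4.33 for Serping1. For progesterone over transgenic it ran from -0.23 to 0.28 for C2, -0.83 to 0.82 for C1ra, -1.21 to 3.58 for Serping1 and -0.40 to 1.17 for C3ar1. For vehicle over transgenic it ran from -1.33 to 1.69 for C3, -3.04 to 1.96 for C4b, -0.06 to 0.22 for C2, -0.22 to 0.86 for C1ra, -0.46 to 1.68 for C1s1, -1.26 to 0.04 for Serping1, -1.11 to 0.46 for C3ar1 and -0.44 to 0.08 for C5ar1. With 2 libraries a group, the lone library left was assumed to vary like the others. Cfb lay under the limit of 3 counts in every library.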

Other observations

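Genes that respond to interferon gamma, a known inducer of complement genes, were described as a list of 15, of which 14 were in the table and past the filter. They summed to 345 and 272 CPM in progesterone, 206 and 276 CPM in vehicle, and 271 and 523 CPM in transgenic tumours, and 0 of 14 were called by edgeR in any comparison. The median log2 fold change was 0.78 for progesterone over vehicle (13 positive, 1 negative), with 11 of 14 higher and 0 lower without overlap. For progesterone over transgenic it was -0.45 (1 positive, 13 negative), with 1 higher and 3 lower. For vehicle over transgenic tumours it was -1.26 (1 positive, 13 negative), with 1 higher and 10 lower. Among all genes 18.5%, 14.5% and 17.9% were higher and 17.8%, 14.5% and 17.7% lower. The part of these genes in the complement values was not tested. Acute phase and IL-6 family genes (16 of 16 past the filter) summed to 1128 and 912 CPM in progesterone, 1294 and 1210 CPM in vehicle, and 1401 and 700.3 CPM in transgenic tumours. Their medians were -0.39, -0.13 and 0.27 in the same order of comparisons, with 0 of 16 called. The list was lowest in the same transgenic library, number 2, in which C3ar1 was highest.

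Endothelial markers (7 of 7) summed to 102 and 235 CPM in progesterone, 236 and 232 CPM in vehicle, and 226 and 276 CPM in transgenic tumours. Summed markers reached at most 9.99 CPM for T cells, 8.9 CPM for dendritic cells, 1.62 CPM for keratinocytes, 12.01 CPM for skeletal muscle and 30.7 CPM for adipocytes in any library. For progesterone over vehicle tumours, 5 of 5 dendritic cell markers and 4 of 5 T cell markers past the filter were higher without overlap. Among all genes 18.5% were, and 0 of either list were called by edgeR. Several of these markers had few counts: in vehicle tumours Siglech had 0 and 0, Cd209a 1 and 1, Cd3d 3 and 1, and Cd8a 5 and 0. Cd209a had 19 and 25 counts in progesterone and 5 and 6 in transgenic tumours. Since a marker can pass the filter through the group where it is high, these shares are description only. Cfd, the gene of factor D, which adipocytes are known to make, had 0 to 0.621 CPM. The lung epithelium list (7 of 9 in the table) summed to 632 and 577.5 CPM in progesterone, 395 and 470 CPM in vehicle, and 267 and 766 CPM in transgenic tumours, most of it Krt8 and Krt18. The sum does not stand for every marker. Of 4 past the filter, 2 were highest in transgenic library 2 and 2 in transgenic library 1, where the sum was lowest. Log2 fold changes were 3 positive and 1 negative for progesterone over vehicle, and 2 positive and 2 negative for progesterone over transgenic tumours.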
